A study of Mus musculus with 16 samples.

Results

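Itgb8 encodes the beta 8 subunit of an integrin that activates latent TGF-beta, and it is described here together with the other genes of that activation and signalling step in mouse colonocytes. The rule took the rows of the count table whose symbol is 1 of 10: the integrin subunits Itgb8, Itgb6 and Itgav, the ligands Tgfb1, Tgfb2 and Tgfb3, the receptors Tgfbr1 and Tgfbr2, and the Smads Smad3 and Smad7. All 10 were found among the 54392 symbols, and 8 passed the filter on low counts, leaving out Tgfb2 and Tgfb3. The set was selected on the diet difference measured in these same libraries, so the diet values of its genes are given as a description, with no test.

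Poly(A) RNA was sequenced from colonocytes, the labels' name for these lining cells of the colon, of C57BL/6 mice kept on 1 of 2 diets for 3 weeks. Fish oil with pectin, a source of n-3 fats and of fibre that gut bacteria ferment, gave 7 libraries. Corn oil with cellulose, a source of n-6 fats and of fibre that they barely ferment, gave the other 9. Oil and fibre differ together between the diets and cannot be told apart. The titles call each library a biological replicate, but no label ties a library to its own mouse. The p-values cover variation among these libraries, part of which may be technical. Library names began with GC in 10 libraries (5 of each diet) and had another form in 6 (2 fish oil/pectin, 4 corn oil/cellulose). The meaning of these forms is unknown here, and the form is a term of the model.

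TGF-beta is secreted in a latent form, held inside a cage made from its own propeptide. Integrins made of the alpha v subunit (Itgav) with beta 6 (Itgb6) or beta 8 (Itgb8) bind an arginine-glycine-aspartate motif in the propeptide and free the ligand, which then acts through Tgfbr2 and Tgfbr1 to phosphorylate Smad2 and Smad3. In the gut, beta 6 is known mainly from epithelium, and beta 8 best from dendritic cells, where the ligand it releases favours regulatory T cells. Smad7 is an inhibitor of the receptors that the pathway itself induces.

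The motif is shown first because it is what the integrin subunits bind. The coding windows below come from GENCODE M21 transcripts on GRCm38, and the capitals mark the arginine, glycine and aspartate codons in Tgfb1 (+ strand of chr7:25697127-25697165, exon 5) and Tgfb3 (- strand of chr12:86062150-86062188, exon 5). In Tgfb2 (- strand of chr1:186630738-186630776, exon 6) the capitals mark the codons aligned with them, which do not spell the motif.
Tgfb1: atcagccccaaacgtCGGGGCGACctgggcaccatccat
Tgfb3: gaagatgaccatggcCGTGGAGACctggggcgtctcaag
Tgfb2: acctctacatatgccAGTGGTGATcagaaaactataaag
A search of the whole reading frames found 1 such motif in the 390 codons of Tgfb1, 1 in the 412 of Tgfb3 and 0 in the 442 of Tgfb2. Of the ligands that carry the motif, Tgfb1 was the one measurable in these libraries.

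Itgb8 had the widest diet difference among the 8 genes. Its level, in CPM (counts relative to the TMM-scaled total of each library), was 1.04, 2.54, 1.73, 2.46, 1.56, 2.45 and 0.230 CPM in fish oil/pectin libraries 1 to 7. In corn oil/cellulose libraries 1 to 9 it was 9.25, 2.99, 5.49, 8.69, 5.27, 9.97, 10.5, 5.43 and 5.96 CPM. Every fish oil/pectin library lay below every corn oil/cellulose library, and the nearest pair were fish oil/pectin 2 and corn oil/cellulose 2. The means were 1.71 ± 0.862 CPM with fish oil/pectin (SD, n = 7) and 7.06 ± 2.59 CPM with corn oil/cellulose (SD, n = 9). The model, edgeR with a term for name form, put the log2 fold change of fish oil/pectin over corn oil/cellulose at -2.06 ± 0.34 (SE), which is 4.16-fold lower. Among the 14321 genes tested, 10 had a lower log2 fold change, and the median over all was -0.0043. All 7 fish oil/pectin libraries and 4 of the corn oil/cellulose libraries have names from a lower series of numbers, and in these alone the log2 fold change of Itgb8 was -2.03.

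These levels rest on few reads, from 4 to 46 counts per library with fish oil/pectin and from 52 to 185 with corn oil/cellulose. The closest pair held 46 and 52 counts, and their exact Poisson 95% intervals overlapped, at 1.86 to 3.38 CPM in fish oil/pectin 2 and 2.23 to 3.92 CPM in corn oil/cellulose 2. The lowest library, fish oil/pectin 7, held 4 counts, with an interval of 0.0626 to 0.588 CPM. Intervals here cover counting error only. The same library was also low in Hoxd13, a homeobox gene of the hindgut end of the body axis, at 0.631 CPM, against 23.9 to 101 CPM in the other 15 libraries. The next lowest in Hoxd13 was fish oil/pectin 1, at 23.9 CPM with Itgb8 at 1.04 CPM. Corn oil/cellulose 2 followed, at 25.4 CPM with Itgb8 at 2.99 CPM, the lowest Itgb8 of its diet. Corn oil/cellulose 1 came after it, at 42.0 CPM but with Itgb8 at 9.25 CPM. Fish oil/pectin 5 had Hoxd13 at 87.9 CPM with Itgb8 at 1.56 CPM. Any link between Hoxd13 and Itgb8 was not tested. Without fish oil/pectin 7 the log2 fold change of Itgb8 was -1.87, and the part of that library in the difference beyond this value was not tested.

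**Figure D1:**
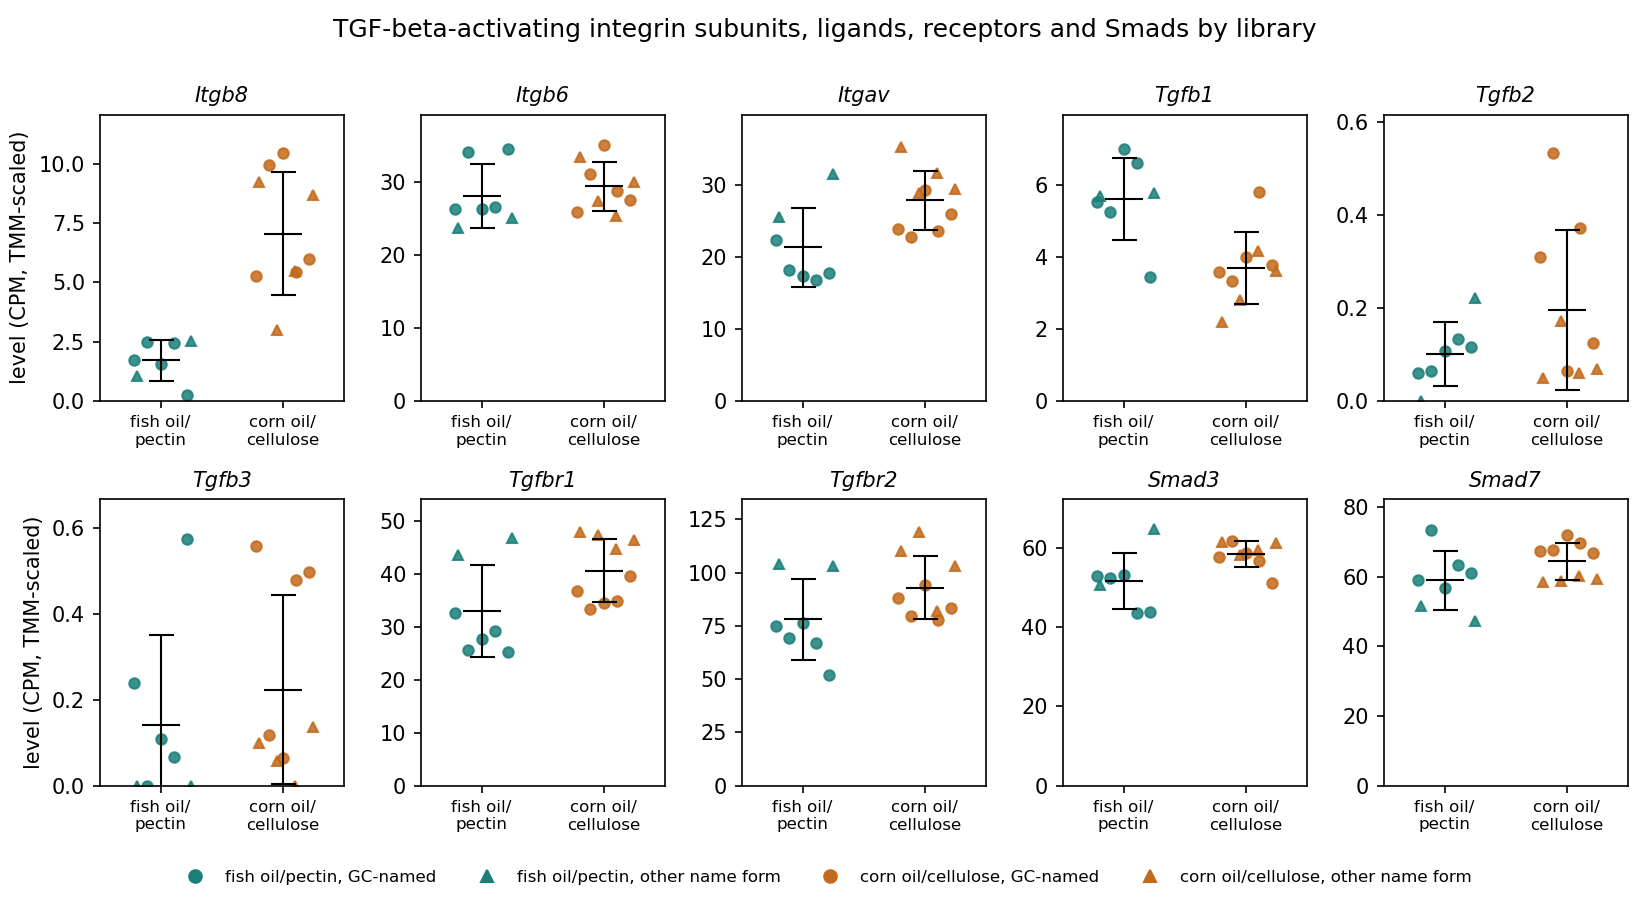
Level in CPM of each of the 10 genes by library, fish oil/pectin (7 libraries, left) and corn oil/cellulose (9 libraries, right), circles for GC-named libraries and triangles for the others, bars showing mean ± SD. Itgb8 is the gene whose groups do not overlap, with all fish oil/pectin libraries at or below 2.54 CPM and all corn oil/cellulose libraries at or above 2.99 CPM.

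The Itgb8 gene lies on the - strand of chr12:119158022-119238802 (GRCm38, GENCODE M21), with 11060 exonic bases. No exon of another annotated gene overlaps its exons. Its promoter is printed because the pathway it feeds acts through Smads, whose short DNA motif, CAGAC (the Smad box), was searched on both strands. The window runs from 250 bases before to 50 after the RefSeq start (GRCm38.p6, - strand of chr12:119238227-119238526). The GENCODE gene begins further upstream, at 119238802, so the window lies inside it and the annotations differ in the start. Capitals mark the match.
Itgb8 promoter: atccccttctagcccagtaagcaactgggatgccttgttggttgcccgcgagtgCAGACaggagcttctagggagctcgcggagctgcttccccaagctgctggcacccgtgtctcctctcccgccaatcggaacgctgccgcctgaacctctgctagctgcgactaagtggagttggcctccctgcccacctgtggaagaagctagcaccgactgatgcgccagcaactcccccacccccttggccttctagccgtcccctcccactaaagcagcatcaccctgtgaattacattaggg
The window held 1 Smad box, at position -196 from the RefSeq start, 0 AP-1 sites (TGANTCA) and 0 GC boxes (GGGCGG). The box is common: 49.6% of 32851 promoter windows of the same length hold it, as do 5 of the windows of the 10 genes (Itgb8, Itgb6, Tgfb2, Tgfbr1 and Tgfbr2). AP-1 sites were in 7.81% of all windows and in 0 of the 10, and GC boxes in 35.7% of all and in 4 of the 10. With 1 match in the window no motifs overlap, and a match is only a description of the sequence.

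The diet difference of Itgb8 was of like size in both name forms. In GC-named libraries Itgb8 averaged 1.69 ± 0.910 CPM with fish oil/pectin and 7.42 ± 2.57 CPM with corn oil/cellulose (SD, n = 5 each). Among the other libraries it averaged 1.79 ± 1.06 CPM with fish oil/pectin (SD, n = 2) and 6.61 ± 2.92 CPM with corn oil/cellulose (SD, n = 4). The log2 fold changes were -2.15 ± 0.43 in GC-named and -1.88 ± 0.62 in other libraries. The difference between them was -0.27 ± 0.74, with an interval of 2 SE either side from -1.76 to 1.22 (edgeR, adjusted p = 0.867 for GC-named minus other). That interval is wide enough to hide a several-fold difference between the forms. GC-named libraries as a whole did not differ detectably from the others in Itgb8, with a log2 fold change of 0.08 ± 0.33 (edgeR, adjusted p = 0.858).

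**Figure D2:**
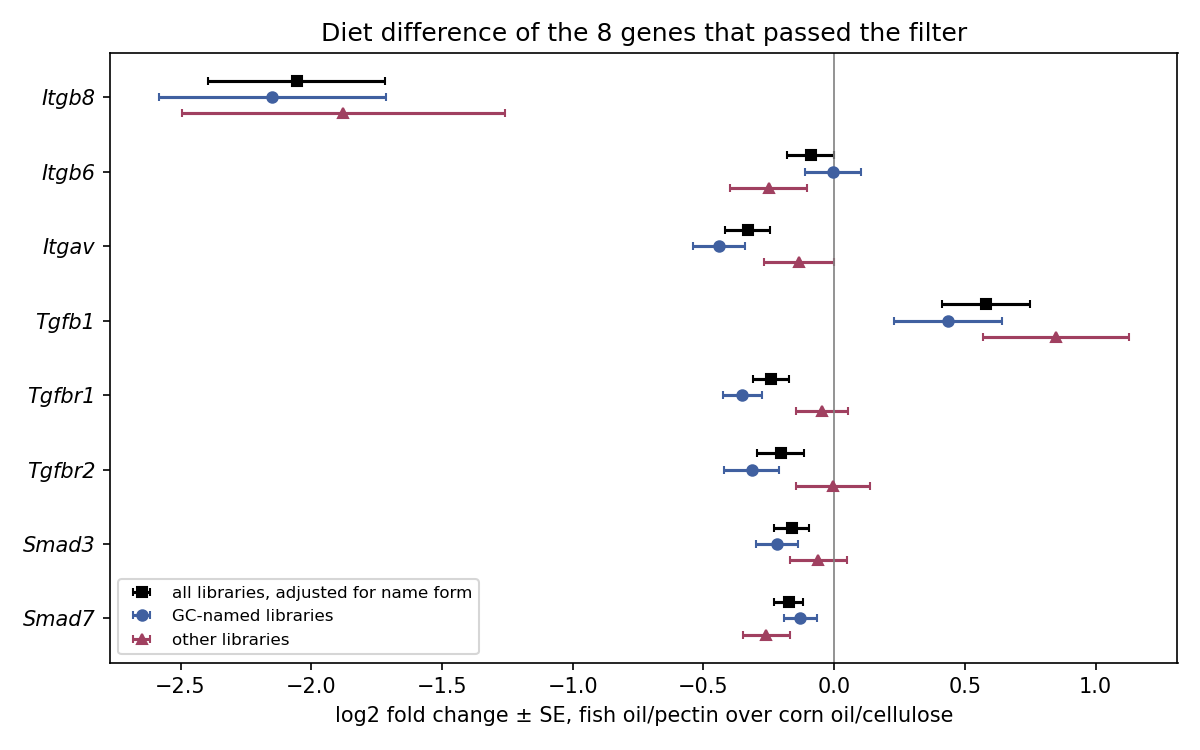
Log2 fold change of fish oil/pectin over corn oil/cellulose with its SE for the 8 genes that passed the filter, in all libraries with a name form term (squares), in GC-named libraries (circles) and in the others (triangles). Itgb8 stands near -2 in all 3 fits, Tgfb1 is positive in all 3, and Tgfbr1, Tgfbr2 and Itgav are lower mainly in the GC-named fit, although no difference between forms passed the threshold.

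The other integrin subunits of the activating pairs differed less. Itgb6 (chr2:60598292-60722643, - strand), the epithelial partner, ran from 23.7 to 34.5 CPM (median 26.3) with fish oil/pectin and from 25.3 to 35.1 CPM (median 28.8) with corn oil/cellulose. Those ranges overlapped almost fully, and the log2 fold change was -0.09 ± 0.09. Itgav (chr2:83724397-83806916, + strand), the shared alpha v subunit, ran from 16.8 to 31.6 CPM (median 18.2) with fish oil/pectin and from 22.8 to 35.3 CPM (median 28.9) with corn oil/cellulose. Its log2 fold change was -0.33 ± 0.09. The diets overlapped through fish oil/pectin 1 and 2, the libraries without the GC prefix, at 25.5 and 31.6 CPM. Within GC-named libraries Itgav averaged 18.5 ± 2.23 CPM with fish oil/pectin and 25.1 ± 2.62 CPM with corn oil/cellulose (SD, n = 5 each), without overlap. An annotated gene of the opposite strand, Gm13684, overlaps Itgav, and the strand setting of the counting is unknown here.

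Per length, beta 8 was a small part of the beta subunits that can pair with alpha v. In CPM per kb of exon, with fish oil/pectin the levels were 73.4 for Itgb1, 15.01 for Itgb5, 3.95 for Itgb6, 0.155 for Itgb8 and 0.0195 for Itgb3. With corn oil/cellulose they were 77.4 for Itgb1, 13.5 for Itgb5, 4.13 for Itgb6, 0.638 for Itgb8 and 0.0312 for Itgb3. The order of the 5 subunits was the same with both diets. Itgb8 was 0.164% of their sum in the median fish oil/pectin library (0.0207% to 0.263%) and 0.571% in the median corn oil/cellulose library (0.277% to 1.05%). The per-length ratio of Itgb8 to Itgb6 was 0.0422 in the median fish oil/pectin library (0.00428 to 0.0651) and 0.140 in the median corn oil/cellulose library (0.0701 to 0.206). The ratio therefore did not overlap between the diets either. Itgb1 and Itgb5, which are no part of the 10, had log2 fold changes of -0.05 ± 0.06 and 0.12 ± 0.08 that did not pass the threshold (edgeR, adjusted p = 0.495 and 0.237).

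**Figure D3:**
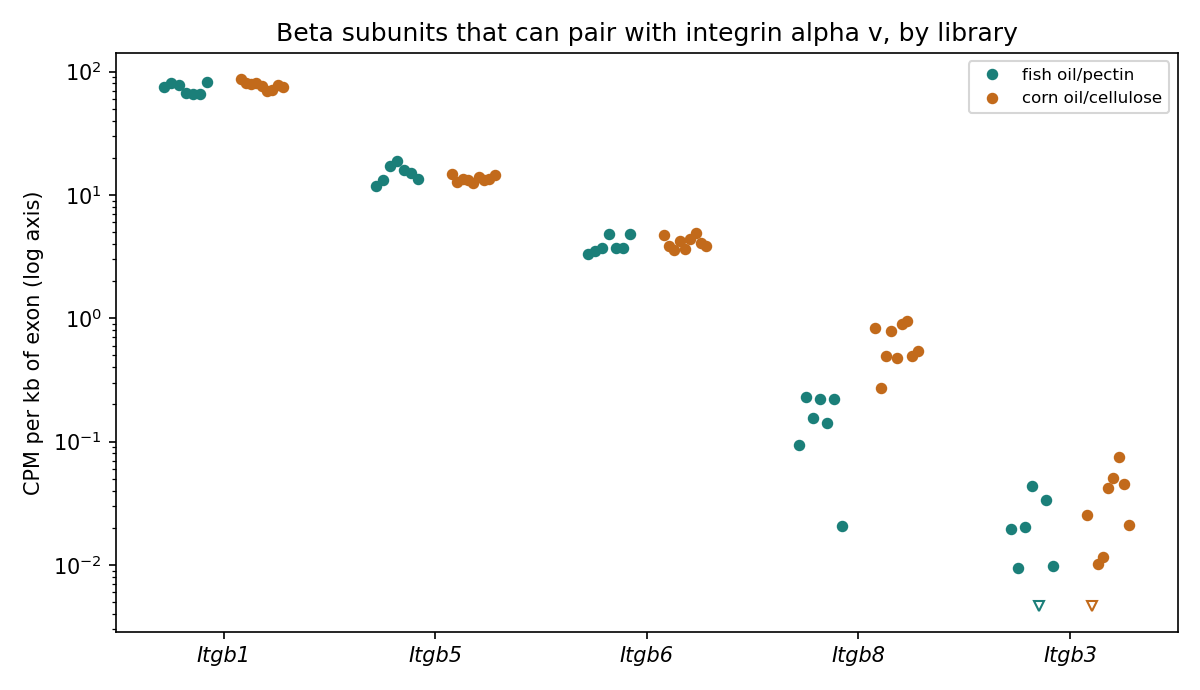
Level per library, in CPM per kb of exon on a log axis, of the 5 beta subunits that can pair with alpha v, fish oil/pectin left of corn oil/cellulose for each gene, with open triangles at the bottom for libraries with 0 counts. The Itgb8 points separate by diet, while those of Itgb1, Itgb5 and Itgb6 overlap.

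Among the ligands, Tgfb1 (chr7:25687002-25705077, + strand) was the one with a usable level, and it was higher with fish oil/pectin. It had 5.69, 5.79, 5.54, 5.24, 7.01, 6.61 and 3.44 CPM in fish oil/pectin libraries 1 to 7. In corn oil/cellulose libraries 1 to 9 it had 2.20, 2.82, 4.18, 3.63, 3.60, 3.32, 4.00, 5.81 and 3.79 CPM. The groups overlapped through fish oil/pectin 7, the lowest of its diet, and corn oil/cellulose 8, the highest of its diet. The log2 fold change was 0.58 ± 0.17, with 0.44 ± 0.21 in GC-named and 0.85 ± 0.28 in other libraries. Tgfb1 was thus opposite in sign to Itgb8 in all libraries together and in each name form.

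Tgfb2 and Tgfb3 were near the limit of detection. Tgfb2 had 0 to 4 counts per library with fish oil/pectin and 1 to 9 with corn oil/cellulose. Tgfb3 had 0 to 10 counts with fish oil/pectin and 0 to 9 with corn oil/cellulose, and its highest level was 0.574 CPM, in fish oil/pectin 7. Neither passed the filter on low counts, so neither was tested in the model used here, and opposite-strand genes overlap both (Gm29491 with Tgfb2, Gm37804 and Gm48008 with Tgfb3).

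Both receptors were lower with fish oil/pectin in the GC-named libraries, with little difference in the others. Tgfbr1 (chr4:47353222-47414931, + strand), the signalling receptor, ran from 25.3 to 46.8 CPM (median 29.2) with fish oil/pectin and from 33.4 to 48.0 CPM (median 39.6) with corn oil/cellulose. Its log2 fold change was -0.24 ± 0.07 in all libraries, -0.35 ± 0.07 in GC-named and -0.05 ± 0.10 in other libraries. The difference between forms was -0.31 ± 0.12, with an unadjusted p of 0.0241 and an adjusted p of 0.130 in edgeR, and so did not pass, though it passed without fish oil/pectin 3 (adjusted p = 0.0382). Tgfbr2 (chr9:116084293-116175360, - strand), the receptor that binds the ligand first, ran from 51.9 to 104 CPM (median 75.1) with fish oil/pectin and from 77.5 to 119 CPM (median 88.0) with corn oil/cellulose. Its log2 fold changes were -0.20 ± 0.09 in all libraries, -0.32 ± 0.10 in GC-named and -0.0027 ± 0.14 in other libraries. The difference between forms was -0.31 ± 0.18 (edgeR, adjusted p = 0.281).

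The Smads had log2 fold changes within the standard errors of that of Tgfbr2. Smad3 (chr9:63646767-63757994, - strand), which carries the signal to the nucleus, ran from 43.7 to 64.8 CPM (median 52.4) with fish oil/pectin and from 51.2 to 61.9 CPM (median 58.8) with corn oil/cellulose. Its log2 fold change was -0.16 ± 0.07. Smad7 (chr18:75367529-75395935, + strand), the inhibitor, ran from 47.1 to 73.4 CPM (median 59.2) with fish oil/pectin and from 58.3 to 71.9 CPM (median 66.7) with corn oil/cellulose, with a log2 fold change of -0.17 ± 0.06. Fish oil/pectin 4 was the highest library of all in Smad7, and in the libraries without the GC prefix both fish oil/pectin values lay below all 4 corn oil/cellulose values.

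Counted together, 5 of the 8 tested genes were past the threshold in the diet difference: Tgfb1 higher, and Itgb8, Itgav, Tgfbr1 and Smad7 lower. Of all genes tested, 41.7% were past it, and since this contrast chose the genes, nothing is read from the count. Under other settings the count ran from 0 to 7. It was 0 in the 6 libraries lacking the GC prefix and with the non-epithelial marker score as a covariate, where Itgb8 did not pass either. The count was 2 with the T cell covariate and 2 in the libraries of the lower series of numbers alone. With no name form term 3 passed, and with scaling by total counts 7 did. Itgb8 was 1 gene of the 8 without overlap between diets, where 0.999% of all genes tested lay wholly lower and 2.35% wholly higher with fish oil/pectin. The median log2 fold change of the 8 was -0.19 and the median size 0.22, against -0.0043 and 0.23 over all genes tested.

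By level per length the 10 genes were ordered Smad7 (13.7 CPM per kb over all libraries), Tgfbr2 (10.6), Smad3 (10.03), Tgfbr1 (5.70), Itgb6 (4.05), Itgav (2.33), Tgfb1 (0.901), Itgb8 (0.427), Tgfb3 (0.0554) and Tgfb2 (0.0265). Tgfbr2 and Smad3 are neighbours that do not differ beyond their spread, at 9.53 ± 2.33 and 9.33 ± 1.28 CPM per kb with fish oil/pectin and at 11.4 ± 1.80 and 10.6 ± 0.593 CPM per kb with corn oil/cellulose (SD, n = 7 and n = 9). Tgfb3 and Tgfb2 also lie within their spread. Per length, the receptors and Smads stood above the ligands and beta 8 with either diet.

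The name form, a contrast that the choice of genes did not use, separated both receptors, Itgav and Smad7. In GC-named over other libraries, Tgfbr1 fell by 0.50 on the log2 scale (-0.50 ± 0.07, edgeR adjusted p = 5.99e-05). Itgav (-0.44 ± 0.09, adjusted p = 0.000787) and Tgfbr2 (-0.42 ± 0.09, adjusted p = 0.00159) fell as well, while Smad7 rose (0.27 ± 0.06, adjusted p = 0.00147). These 4 of 8 genes passed, 1 higher and 3 lower, against 40.5% of all genes tested (20.2% higher and 20.3% lower). Itgb6 (0.13 ± 0.09), Tgfb1 (0.19 ± 0.18) and Smad3 (-0.13 ± 0.07) did not pass (adjusted p = 0.295, 0.400 and 0.131). Y-linked transcripts were present in all 6 libraries without the GC prefix and in 3 of the GC-named ones, so sex and name form overlap. By diet they were present in 3 of 7 fish oil/pectin and 6 of 9 corn oil/cellulose libraries, so sex is uneven between the diets too, and with the covariate the log2 fold change of Itgb8 between diets was -2.09. With Y-linked counts as a covariate Tgfbr1 still passed, while Itgav (-0.34, adjusted p = 0.0617), Tgfbr2 (-0.34, adjusted p = 0.0785) and Smad7 (0.21, adjusted p = 0.0713) did not.

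No test of the difference in diet effect between name forms passed for any of the 8 genes, against 8.41% of all genes tested, and Tgfbr1 was the 1 with an unadjusted p under 0.05. DESeq2 and limma voom called 0 of the 8 as well. All 8 had the same sign in both forms of the joint fit, although Tgfbr2 came to 0.0077 when the 6 libraries without the prefix were fitted alone. The fitted differences ran from -0.41 ± 0.35 for Tgfb1 to 0.24 ± 0.18 for Itgb6, and the median size over all genes tested was 0.25. Over all genes, the joint edgeR fit called 45% in GC-named libraries and 0% in the rest (16.7% at an unadjusted p under 0.05), and a fit to those 6 libraries alone called 900 genes.

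Markers of other cells were set beside these values, because beta 8 is best known from dendritic cells. Epithelial markers (Epcam and 13 others) summed to between 24048 and 39775 CPM with fish oil/pectin and between 22947 and 27668 CPM with corn oil/cellulose. Muc2, a goblet cell gene among them, had 716 to 4707 CPM. Of the 14, 7 rose and 0 fell (edgeR, adjusted p under 0.05), against 21.7% and 20.1% of all genes tested. In GC-named libraries the sums did not overlap, at 31267 to 39775 CPM with fish oil/pectin and 25304 to 27668 CPM with corn oil/cellulose. Their part in the Itgb8 difference was not tested. Of the defining dendritic cell markers Flt3, Zbtb46, Xcr1, Clec9a, Batf3, Ccr7 and Cd209a, each was under 1 CPM in every library. With Itgax, the 1 other marker of that list besides Irf8, they summed to between 0.517 and 2.18 CPM with fish oil/pectin and between 2.36 and 2.92 CPM with corn oil/cellulose in GC-named libraries. In the other libraries these sums overlapped, at 0.863 and 1.88 CPM with fish oil/pectin and 1.04 to 1.37 CPM with corn oil/cellulose. Itgax itself fell with fish oil/pectin over both name forms (-0.90, edgeR adjusted p = 0.0344), but at -0.08 (adjusted p = 0.959) did not pass in libraries lacking the GC prefix. Irf8 brought the sum to between 92.3 and 139 CPM with fish oil/pectin and between 83.1 and 107 CPM with corn oil/cellulose. The part of these signals in the Itgb8 difference was not tested. Of the 5 regulatory T cell markers, Foxp3, Il2ra and Ctla4 were under 1 CPM, and Tnfrsf18, a receptor of the TNF family, reached 2.98 CPM at most. The fifth, Ikzf2, a transcription factor, had 8.27 to 19.3 CPM with fish oil/pectin and 19.5 to 29.2 CPM with corn oil/cellulose, which did not overlap (-0.75, edgeR adjusted p = 0.00113), and its part was not tested either. Also under 1 CPM were 8 of 10 fibroblast and all 7 B and plasma cell markers. Markers of enteric glia and neurons summed to 4.11 to 5.52 CPM with fish oil/pectin and 6.15 to 8.79 CPM with corn oil/cellulose. These sums did not overlap within either name form, and 5 of the 8 genes were under 1 CPM. Their part in the Itgb8 difference was not tested. T cell markers were detectable: 12 of them summed to between 11.3 and 30.2 CPM with fish oil/pectin and between 10.2 and 70.5 CPM with corn oil/cellulose, and 9 of the 10 tested were lower with fish oil/pectin. In bulk samples fewer cells of a type and less RNA per cell cannot be told apart.

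T cell markers separated the diets in GC-named libraries, at 16.8 to 30.2 CPM with fish oil/pectin and 31.9 to 70.5 CPM with corn oil/cellulose. In the other libraries they overlapped, at 11.3 to 14.1 CPM with fish oil/pectin and 10.2 to 14.8 CPM with corn oil/cellulose. In those libraries the log2 fold change of Itgb8 was -1.88 ± 0.62, as given above, from 2 fish oil/pectin libraries. Itgb8 did not pass in a fit to those 6 libraries alone. With the mean of the T cell markers as a covariate the log2 fold change of Itgb8 was -2.43 instead of -2.06. That of Tgfbr1 was -0.10 instead of -0.24. The part of T cells in the difference of either gene was not tested. Diet and name form explain 77.9% of that covariate's variance, so the fit has little left to separate them.

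**Figure D4:**
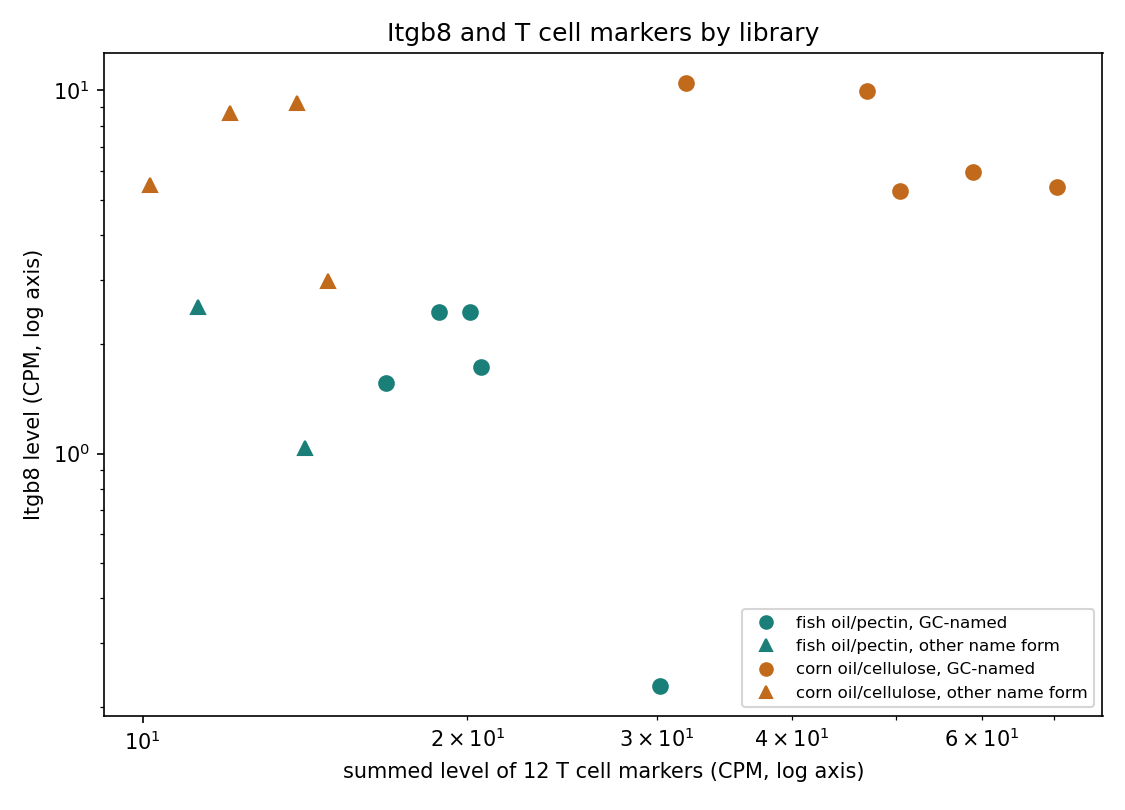
Itgb8 level in CPM against the summed CPM of 12 T cell markers by library, both on log axes, circles for GC-named and triangles for other libraries. In the libraries without the GC prefix, T cell markers of both diets lie between 10.2 and 14.8 CPM. Itgb8 there is 1.04 and 2.54 CPM with fish oil/pectin (n = 2) and 2.99 to 9.25 CPM with corn oil/cellulose (n = 4). The nearest pair, at 2.54 and 2.99 CPM, overlap in their Poisson 95% intervals.

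The rest of the pathway was described with 7 lists holding 117 genes, of which 89 passed the filter. Itgae stands both among the TGF-beta-induced genes and among the other integrin subunits, and is counted once in these totals. Of these 89, 9 rose and 35 fell with fish oil/pectin (edgeR, adjusted p under 0.05), which is 49.4%, against 41.7% of all genes tested. Over all genes tested 21.7% rose and 20.1% fell. The median log2 fold change of the 89 was -0.19, with -0.23 in GC-named and -0.08 in other libraries. Some of these genes are known from leukocytes as well as from epithelium, and T cell markers moved the same way in GC-named libraries. With the T cell covariate 2 rose and 11 fell. Over all 14321 genes tested, 1454 rose and 861 fell with that covariate, against 3103 and 2876 without it.

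Of the genes that hold or release latent TGF-beta, 7 of 17 were tested, 3 fell and 1 rose, with a median log2 fold change of -0.21. Thbs1, a secreted glycoprotein that can activate the latent complex, fell to 28.9 ± 6.96 CPM with fish oil/pectin, against 49.2 ± 12.7 CPM with corn oil/cellulose (log2 fold change -0.76 ± 0.17, edgeR adjusted p = 0.00252). Its diet effect differed between the name forms (difference -1.04, adjusted p = 0.0257). Furin, the protease that cuts the propeptide, fell by 0.21 on the log2 scale (adjusted p = 0.0130). Nrros, which tethers latent TGF-beta on myeloid cells, fell by 0.70 at a level near 1 CPM (adjusted p = 0.0155). The calls of Furin and Nrros were lost in 4 and 6 of 14 other settings. Mmp14, a membrane metalloprotease, rose by 0.21 (adjusted p = 0.0258), a call lost in 2 of 16 fits that left out a library and in 8 of 14 other settings.

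Next to the receptors, the list of co-receptors and other Smads had 10 of 12 genes tested, with 5 lower, 1 higher and a median of -0.16. The 1 higher, Smad6 (0.33, adjusted p = 0.0295), did not pass in 7 of 16 fits that left out a library and in 7 of 14 other settings. Zfyve16 (-0.52 ± 0.07, adjusted p = 0.000412) and Zfyve9 (-0.36 ± 0.08, adjusted p = 0.00181), endosomal proteins that bind Smads, both fell. Zfyve16 had 18.4 to 29.0 CPM with fish oil/pectin and 32.0 to 38.7 CPM with corn oil/cellulose, with no overlap. Smad9 and Smad5, Smads of the BMP branch, fell by 0.68 and 0.25 (adjusted p = 0.0161 for each). Their calls were lost in 6 and 5 of 14 other settings. Smad2 and Smad4 were tested and did not pass.

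The 16 negative regulators were all tested, and 6 fell and 3 rose, with a median of -0.14. Strap, which binds the receptor together with Smad7, rose to 149 ± 12.2 CPM with fish oil/pectin, against 118 ± 8.14 CPM with corn oil/cellulose (0.33 ± 0.06, adjusted p = 0.000709). The ubiquitin ligase Stub1 rose by 0.39 ± 0.07 (adjusted p = 0.000781). Smurf2, a ubiquitin ligase that Smad7 brings to the receptor, fell by 0.30 (adjusted p = 0.000748), and Skil, a repressor of Smad3 targets, fell by 0.37 (adjusted p = 0.00354). This list thus held changes in both directions.

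Of 24 genes that TGF-beta is known to induce, 19 were tested and 5 fell, with a median of -0.12. That is 26.3% past the threshold, against 41.7% of all genes tested. In edgeR 0 rose, 0 rose at an unadjusted p under 0.05, and 0 rose in DESeq2 or limma voom. The count of 5 was 8 without fish oil/pectin 2 and 3 without any 1 of fish oil/pectin 1, 5 or 6 or corn oil/cellulose 3, 7 or 9. Itgae, the alpha E integrin subunit of intraepithelial T cells, fell to 3.12 ± 0.498 CPM with fish oil/pectin, against 6.87 ± 3.73 CPM with corn oil/cellulose (-1.11 ± 0.25, adjusted p = 0.00275), and its diet effect differed between the name forms (difference -1.81, adjusted p = 0.0124). Tgfbi, a matrix protein, fell by 0.79 (adjusted p = 0.00639). The transcription factors Bhlhe40 and Klf10 fell by 0.36 and 0.38 (adjusted p = 0.00747 and 0.0374). Of 5 genes that TGF-beta lowers, Id1 (0.37 ± 0.11, adjusted p = 0.0108) and Id3 (0.31 ± 0.12, adjusted p = 0.0470) rose, and both are also known targets of BMPs. Leaving out 1 library ended the call of Id3 in 11 of 16 fits and that of Klf10 in 7 of 16. The 14 other settings ended them in 11 and 8 cases.

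The same lists separated by name form. In GC-named libraries 13 of the 19 TGF-beta-induced genes were higher (edgeR, adjusted p under 0.05) and the other 6 did not pass, with a median log2 fold change of 0.56 over the other libraries, against 20.2% of all genes tested higher and a median of 0.01. With Y-linked counts as a covariate, since sex and name form overlap, 8 of the 19 were higher, and name form calls over all genes numbered 2027, against 5799 without it. With the T cell marker mean as a covariate, chosen after seeing the data, 7 were higher and 1 lower. Of the 5 genes lowered by TGF-beta, 3 were higher in GC-named libraries as well. Examples chosen after their values were seen are Gadd45b, at 25.6 to 41.8 CPM in GC-named and 9.37 to 12.8 CPM in other libraries, and Junb, at 196 to 322 CPM in GC-named and 75.1 to 126 CPM in other libraries. Ctgf had 5 to 19 counts in each GC-named library and 0 in each of the other 6. Gadd45b and Junb are also immediate early genes that rise when tissue is handled, and their part in this difference was not tested.

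**Figure D5:**
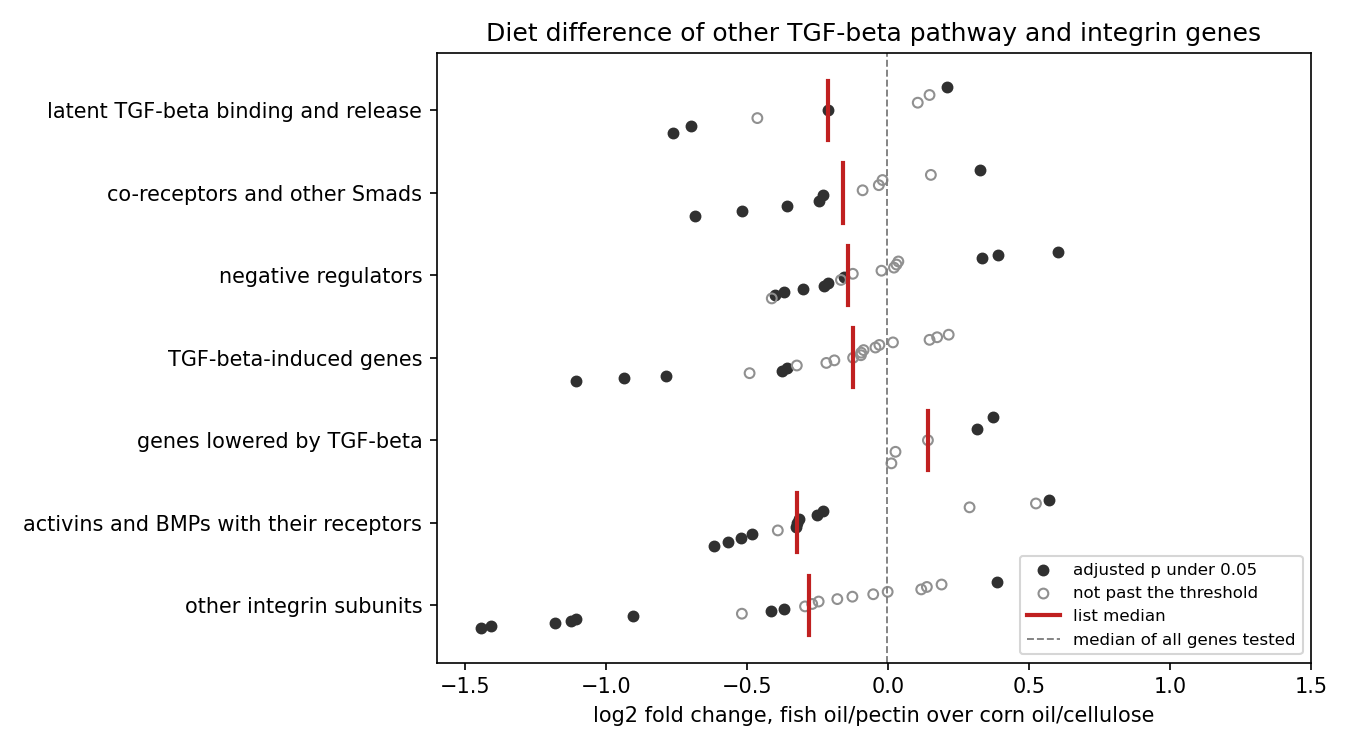
Log2 fold change of fish oil/pectin over corn oil/cellulose for each tested gene of the 7 pathway lists, filled where the adjusted p was under 0.05, with the list median (red) and the median of all genes tested (dashed). Of the 5 genes lowered by TGF-beta, 2 lie above 0 as filled points, and the activin and BMP list has 9 filled points below 0 and 1 above.

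Of the related activin and BMP branch 13 of 22 genes were tested, 9 lower and 1 higher, with a median of -0.32. With the T cell covariate 2 were lower and 0 higher. Calls over all 14321 genes tested also fell with it, to 2315 from 5979. The activin receptors Acvr1c (-0.62 ± 0.11, adjusted p = 0.000693), Acvr1b (-0.33 ± 0.07, adjusted p = 0.00137), Acvr2b (-0.57 ± 0.12, adjusted p = 0.00188) and Acvr2a (-0.32 ± 0.08, adjusted p = 0.00346) all fell. Acvr1b had 123 to 172 CPM with fish oil/pectin and 171 to 224 CPM with corn oil/cellulose. Its groups met at their edges.

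Of 22 other integrin subunits, 20 were tested, 8 fell and 1 rose, with a median of -0.28. That is 45% past the threshold, against 41.7% of all genes tested. Besides the examples below, those that fell were Itgae, Itgal (-1.18), Itga4 (-1.41) and Itgax, subunits known from leukocytes. In libraries lacking the GC prefix the joint fit put Itgal at 0.28 and Itga4 at 0.17 (edgeR, adjusted p = 0.673 and 0.886). The 1 that rose, Itga5 (0.39, adjusted p = 0.0481), did not pass in 11 of 16 fits that left out a library and in 11 of 14 other settings. Itgb4, the beta subunit of epithelial hemidesmosomes, fell to 256 ± 24.9 CPM with fish oil/pectin, against 340 ± 30.1 CPM with corn oil/cellulose (-0.42 ± 0.07, adjusted p = 0.000562). Its libraries did not overlap, at 224 to 291 CPM with fish oil/pectin and 295 to 381 CPM with corn oil/cellulose. Itga1, a collagen receptor subunit, fell by 0.37 (adjusted p = 0.00266). Itgb7 (-1.12 ± 0.22, adjusted p = 0.000986) and Itgb2 (-1.44 ± 0.32, adjusted p = 0.00206), subunits of leukocyte integrins, fell too, at levels under 9 CPM in every library. The falls of Itgb7 and Itgb2 did not hold in 5 and 3 of 14 other settings. In a fit to the 6 libraries lacking the GC prefix, Itgb2 (0.0046) and Itgae (0.0817) were not lower (adjusted p = 0.996 and 0.862), and the diet effect of Itgb2 differed between forms by -2.07 (adjusted p = 0.0249). The median of this list was -0.38 in GC-named and 0.03 in other libraries.

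The genes whose pattern was most like that of Itgb8 were ranked by Pearson r of log2 CPM among 11064 genes, as a description over 16 libraries that share diet, name form and depth. Over all libraries they included Nr3c2 (r = 0.976), Ncstn (0.966), Abca3 (0.953), Amotl2 (0.944) and Mpzl2 (0.941). After the mean of each diet by name form group was removed, they were Ano1 (r = 0.960), Nr3c2 (0.949), Slc44a1 (0.945), Hmcn1 (0.945), Itih5 (0.941) and Stim1 (0.933). Nr3c2, the mineralocorticoid receptor, was in both sets. It ran from 78.2 to 151 CPM (median 131) with fish oil/pectin and from 153 to 212 CPM (median 185) with corn oil/cellulose, and its log2 fold change was -0.52 ± 0.11. Its lowest library was fish oil/pectin 7, as for Itgb8. Ano1, a calcium-activated chloride channel, was also lowest in that library, at 77.0 CPM, where corn oil/cellulose libraries ran from 238 to 385 CPM.

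Leaving out fish oil/pectin 7 lowered these correlations the most, to 0.958 for Nr3c2 over all libraries and to 0.866 after group means were removed. Among the 10 genes themselves, r with Itgb8 was 0.70 for Smad3 (0.56 with group means removed), 0.58 for Itgav (0.32) and 0.52 for Tgfbr2 (0.44). It was 0.47 for Tgfbr1 (0.23), 0.38 for Smad7 (0.19), 0.16 for Itgb6 (0.04) and -0.38 for Tgfb1 (0.35). The strongest pair was Itgav with Tgfbr1, at 0.92 (0.47 with group means removed).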

How the data were processed

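The values are raw read counts per gene symbol as the authors deposited them, 1 column per library, with no normalisation and 0 per-sample columns unused. Per the labels' protocols, a stranded mRNA kit was used, with 200 ng of total RNA per library. The tools named in the submitters' processing notes are HTSeq 0.11.1 and STAR 2.6.0a, with GRCm38 as build. Which annotation release and strand setting the counting used is unknown here. Library totals ran from 16212831 to 19512755 counts with fish oil/pectin and from 13996288 to 19331984 with corn oil/cellulose. Each of the 57 pairs of libraries from 1 diet differed beyond counting noise (chi-square per degree of freedom 8.20 to 141).

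The diets were compared with the robust quasi-likelihood test of edgeR 4.0.16 (R 4.3.3) with TMM scaling, a term for name form and a filterByExpr filter that left 14321 genes with 99.9% of all counts. P-values were adjusted over all of them by the Benjamini-Hochberg method, with 0.05 as threshold. Each standard error is the size of the log2 fold change divided by the root of its F statistic. The difference of diet effects is the interaction of diet and name form in 1 joint fit. Mean CPM are not adjusted for name form. DESeq2 1.42.0, limma voom (limma 3.58.1), other scalings and filters, subsets, covariates and each library left out were alternatives. The T cell covariate and the leaving out of libraries for the correlations were added after the data were seen. The script was tested on simulated data.

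Symbols were matched to GENCODE M21 (98.8%) for position and exon length, which is the union of annotated exons. Promoters came from RefSeq. The 10 genes and all lists were chosen with earlier results of these data known. All 10 genes are described, with up to 4 genes of each list with the lowest p among those past the threshold, and 6 genes per basis most like Itgb8 with at least 1 mean log2 CPM. Genes chosen otherwise are named as such, and 1 gene that these rules chose is left out of the text.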

Additional observations from a re-analysis of the deposited data

Results flagged for a closer look

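Among the 10 genes in 2 diets, 20 groups of libraries were examined for a library far from the others, and 2 held one, where chance gives about 5 in 100. Tgfb3 in fish oil/pectin 7 stood at 0.574 CPM (10 counts), with the nearest fish oil/pectin library at 0.238 CPM. Smad3 in corn oil/cellulose 9 stood at 51.2 CPM, with the nearest corn oil/cellulose library at 56.9 CPM.

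The diet effect of 3 pathway genes differed between name forms by edgeR's interaction test, as GC-named minus other libraries on the log2 scale: Thbs1 by -1.04 (adjusted p = 0.0257), Itgae by -1.81 (adjusted p = 0.0124) and Itgb2 by -2.07 (adjusted p = 0.0249). Without fish oil/pectin 2, 1 of the 2 fish oil/pectin libraries that lack the GC prefix, all 3 missed the threshold (adjusted p = 0.159, 0.1002 and 0.162 for Thbs1, Itgae and Itgb2). Without fish oil/pectin 1 Thbs1 and Itgb2 missed it (adjusted p = 0.0797 and 0.0820), as they did without corn oil/cellulose 3 (adjusted p = 0.0538 for each). With the T cell marker mean as a covariate the differences were -0.59, -0.91 and -0.99 (adjusted p = 0.349, 0.196 and 0.340).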

How the results depend on the processing

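The log2 fold change of Itgb8 ran from -2.43 (T cell covariate) to -1.87 (libraries lacking the GC prefix) over all settings, and from -2.25 to -1.87 with each library left out. Over libraries left out, called genes ran from 5078 to 6065 (2660 to 3146 higher, 2416 to 2936 lower), pathway genes from 4 to 8 higher and from 30 to 42 lower, and name form calls from 4255 to 6076. Calls of the difference of diet effects ran from 6 (without fish oil/pectin 2) to 1763 (without fish oil/pectin 3).

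The diet calls numbered 900 (614 higher, 286 lower; pathway 2 and 3) in those lacking the GC prefix, 2250 (1194 and 1056; pathway 2 and 17) in the lower series of numbers, and 2315 (1454 and 861; pathway 2 and 11) with the T cell covariate. With a non-epithelial marker score as covariate they numbered 2 (0 and 2; pathway 0 and 0), and diet and name form explain 81.4% of that score's variance. Pathway genes called higher numbered 5 with no name form term, 5 with no filter, 4 with total-count scaling and 3 without fish oil/pectin 6 and 7. Total-count scaling put 37.3% of calls higher, against 51.9%, and shifted the median by -0.07. The difference of effects had 725 calls with no filter, 2095 in limma voom, 188 with the T cell covariate and 0 with the non-epithelial score, and name form had 3840 calls with that score and 2027 with Y-linked counts.

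Signs turned in the fit to libraries lacking the GC prefix for Itgae (0.0817), Id3 (-0.11) and Itgb2 (0.0046), and with the non-epithelial score for Itgae (0.12), Id3 (-0.11) and Itgb2 (0.0843). The cause was not tested in any of these. Under a replicate block there were 3494 diet calls (1948 higher, 1546 lower; 23 pathway genes lower), 18 name form calls and 0 for the difference of effects; the name form values of Itgav (-0.21, adjusted p = 0.820), Tgfbr1 (-0.42, 0.606), Tgfbr2 (-0.03, 0.976) and Smad7 (0.36, 0.582) did not pass, and 0 of the 19 TGF-beta-induced genes did. The replicate numbers do not pair the libraries: 4 of 7 pairs correlated above 0.1 and 1 library correlated best with its own number. Depth limits Tgfb2 and Tgfb3, and Itgb8 in fish oil/pectin 7.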
